A study of Mus musculus with 16 samples.

Results

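The 49 interferon-stimulated and antigen presentation genes described here were taken by symbol from the 53465 genes of a mouse liver count table. All 49 were among the 14998 genes with enough counts to be tested. The 49 genes were chosen with earlier results of these data known. Their levels were compared across 4 groups of 4 C57BL/6 livers, each liver from a separate mouse. HFD_PFOA mice ate a high-fat diet (HFD) and received perfluorooctanoate (PFOA), a persistent fluorinated surfactant. CD_PFOA mice ate the control diet (CD) and received PFOA, HFD_vehicle mice ate the high-fat diet and received vehicle, and CD_vehicle mice ate the control diet and received vehicle. Feeding ran for 16 weeks before 8 weeks of treatment, and the mice were 29 to 30 weeks old at collection. No allele or transgene is named for any group. Neither the PFOA dose nor the sex of the animals is stated in the labels. The design asks how PFOA acts on a liver with diet-induced fatty liver disease and on one without.

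Interferons are secreted proteins that alert cells to infection. Type I and type III interferons signal through JAK kinases to a complex that holds STAT2 and IRF9 and binds the interferon-stimulated response element (ISRE) of the target genes. Interferon gamma acts on its targets through the gamma-activated site (GAS). The targets include sensors of foreign RNA, antiviral effectors, GTPases that attack vacuoles of pathogens, and the immunoproteasome and peptide transporter that feed peptides to MHC class I. In liver these genes are active at a low level in hepatocytes, Kupffer cells and endothelium and rise strongly during viral hepatitis.

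Total counts ran from 14456524 to 25778125 per library. CPM below are counts per 1000000 counts of the library after TMM scaling, and the defining hepatocyte gene Alb was at 37030.0 CPM or more in every library. CD_vehicle held 2 libraries that stood apart in genes outside the interferon group. CD_vehicle 4 carried the immunoglobulin transcript Ighm at 320.5 CPM, against 9.88 to 17.5 in the other CD_vehicle livers. CD_vehicle 1 carried the acute phase gene Saa1 at 1255 CPM, against 20.7 to 37.3 in the others. Counts and medians of the members and of the gene lists that rest on CD_vehicle are therefore also given without these libraries, a choice made after seeing the data. In whole liver, fewer cells of a type and less RNA per cell cannot be told apart.

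The promoters of 6 members of several roles are shown because they hold sequence matches to the ISRE or the GAS. That of Tap1 is shown as a member with a match to neither. Whether the matches are bound or used in these livers was not tested. Of the 49 members, 39 matched by symbol in the RefSeq promoter table of GRCm38.p6, whose windows run from 250 bases before to 50 bases after the start of the transcript. The ISRE core was searched as GAAANNGAAA and its reverse complement TTTCNNTTTC, and the GAS as TTCNNNGAA, which reads the same on both strands. Matches of both motifs may overlap each other and themselves. Capitals mark the matches, and each sequence is 5′ to 3′ on the strand of its gene.
Ifih1 (chr2:62646206-62646505, minus strand): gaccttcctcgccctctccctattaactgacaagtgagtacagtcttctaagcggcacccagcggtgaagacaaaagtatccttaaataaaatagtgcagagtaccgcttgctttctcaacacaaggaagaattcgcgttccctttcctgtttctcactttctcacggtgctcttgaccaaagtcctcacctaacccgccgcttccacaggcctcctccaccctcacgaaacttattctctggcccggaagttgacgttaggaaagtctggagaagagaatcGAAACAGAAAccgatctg
Isg15 (chr4:156200769-156201068, minus strand): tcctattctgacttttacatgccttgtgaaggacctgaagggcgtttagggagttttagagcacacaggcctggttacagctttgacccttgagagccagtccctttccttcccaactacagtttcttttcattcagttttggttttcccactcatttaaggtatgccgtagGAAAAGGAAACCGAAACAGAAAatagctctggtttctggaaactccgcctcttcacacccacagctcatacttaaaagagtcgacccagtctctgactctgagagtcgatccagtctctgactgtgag
Ifit1 (chr19:34640639-34640938, plus strand): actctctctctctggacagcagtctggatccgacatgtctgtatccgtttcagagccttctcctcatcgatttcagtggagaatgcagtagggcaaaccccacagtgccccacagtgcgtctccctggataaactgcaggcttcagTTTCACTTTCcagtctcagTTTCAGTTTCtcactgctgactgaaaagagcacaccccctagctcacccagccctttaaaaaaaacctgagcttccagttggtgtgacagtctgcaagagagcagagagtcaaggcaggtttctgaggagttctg
Irgm1 (chr11:48871371-48871670, minus strand): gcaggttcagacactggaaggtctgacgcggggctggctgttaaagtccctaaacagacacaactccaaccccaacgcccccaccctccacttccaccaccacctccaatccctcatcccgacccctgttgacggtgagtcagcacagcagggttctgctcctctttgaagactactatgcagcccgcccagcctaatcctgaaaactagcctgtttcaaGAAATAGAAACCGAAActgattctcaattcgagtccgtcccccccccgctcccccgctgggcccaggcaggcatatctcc
Igtp (chr11:58199306-58199605, plus strand): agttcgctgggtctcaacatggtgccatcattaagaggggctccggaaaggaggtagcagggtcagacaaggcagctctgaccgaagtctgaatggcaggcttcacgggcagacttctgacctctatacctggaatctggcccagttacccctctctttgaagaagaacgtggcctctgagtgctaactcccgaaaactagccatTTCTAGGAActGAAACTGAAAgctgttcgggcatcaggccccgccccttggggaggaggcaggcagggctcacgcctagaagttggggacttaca
B2m (chr2:122147437-122147736, plus strand): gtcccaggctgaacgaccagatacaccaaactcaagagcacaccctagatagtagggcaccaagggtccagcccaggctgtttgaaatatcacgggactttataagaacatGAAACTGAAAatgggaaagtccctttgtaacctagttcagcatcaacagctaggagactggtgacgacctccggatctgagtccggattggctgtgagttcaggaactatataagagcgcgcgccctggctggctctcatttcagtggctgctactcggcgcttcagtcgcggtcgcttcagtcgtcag
Tap1 (chr17:34187306-34187605, plus strand): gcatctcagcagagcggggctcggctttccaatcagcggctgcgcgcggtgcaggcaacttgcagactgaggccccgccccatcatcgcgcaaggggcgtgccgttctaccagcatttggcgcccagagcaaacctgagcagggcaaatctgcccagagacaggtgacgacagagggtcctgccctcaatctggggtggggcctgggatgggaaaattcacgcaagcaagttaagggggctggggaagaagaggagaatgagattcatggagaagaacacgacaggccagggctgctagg

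The ISRE core was found in 20 of the 39 members with a window (51.3%), against 3.99% of all 27025 genes with a window of this length. Some genes have more than 1 window, and a match in any of them counted for the gene. The GAS was found in 11 of 39 (28.2%), against 9.55% of all genes. The Isg15 window holds 3 overlapping ISRE cores, which begin 78, 72 and 66 bases before the start, and the Igtp window holds a GAS and an ISRE core side by side. In Ifih1 the match lies past the start, at position 33. The Tap1 window shares 275 of its 300 bases with that of Psmb9, which is read in the opposite direction. By role, the ISRE core was present in 6 of 7 GTPases, 3 of 4 IFIT genes, 2 of 2 sensors, 2 of 4 OAS genes, 4 of 10 other effectors, 1 of 4 transcription factors, 1 of 4 antigen presentation genes and 0 of 2 genes of the PARP group. Among members called lower with PFOA on the control diet, 8 of 19 with a window held the ISRE core, and among those not called 12 of 20 did. The median log2 fold change of HFD_PFOA over CD_PFOA was 0.59 for the 20 members with the core and 0.60 for the 19 without. With PFOA over vehicle on the control diet it was −0.42 for those with the core and −0.50 for those without. Dhx58, Ifi27, Oas2, Mx2, Usp18, Parp9, Parp14, Rtp4, Iigp1 and Zbp1 had no window.

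The members were lowest in livers that received PFOA on the control diet. The CD_PFOA mean was the lowest of the 4 group means for 40 of the 49 members, against 22.3% of all genes tested, and it was the highest for 0. Without CD_vehicle 1 and 4 it was the lowest for 30 of the 49, against 19.9% of all genes, and the highest for 0. Between the diets under PFOA (HFD_PFOA over CD_PFOA), edgeR called 4 members higher and 0 lower at adjusted p under 0.05, where 0.0467% of all genes were called higher. Between PFOA and vehicle on the control diet (CD_PFOA over CD_vehicle), it called 21 of 49 lower, where 12.6% of all genes were called lower, and 0 higher, where 11.8% were. On the high-fat diet (HFD_PFOA over HFD_vehicle), 3 were called higher and 3 lower, where 8.6% and 7.91% of all genes were. Between the diets under vehicle (HFD_vehicle over CD_vehicle), 3 were called higher and 0 lower, where 5.19% and 5.21% of all genes were. The comparisons share groups, so they are not independent of each other: CD_PFOA stands in both the diet comparison under PFOA and the PFOA comparison on the control diet.

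**Figure D1:**
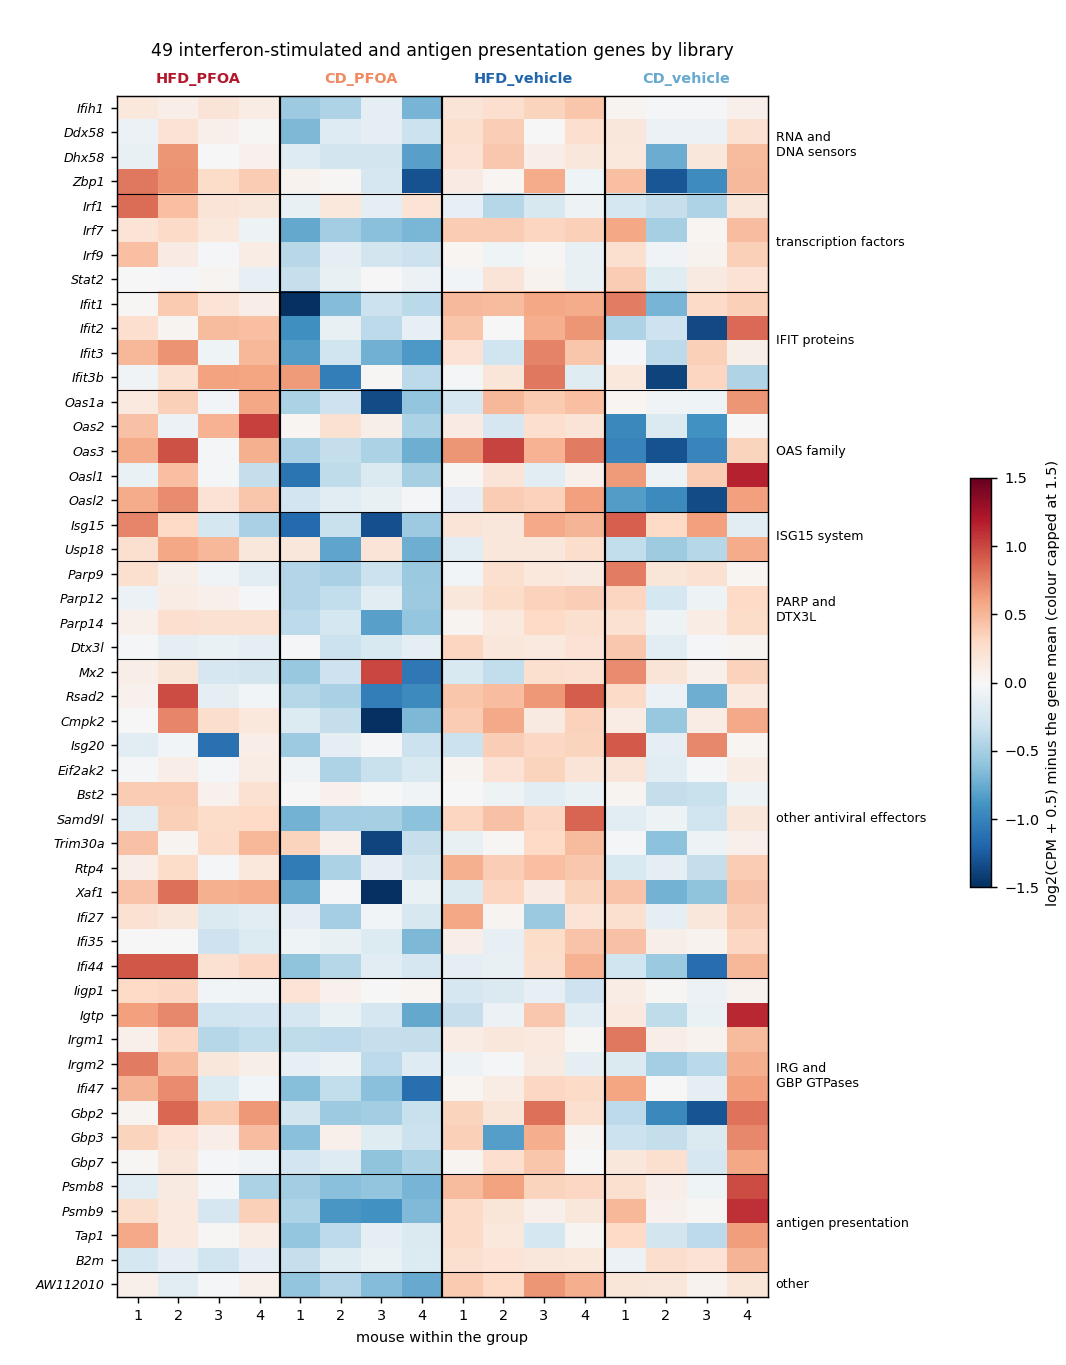
Each row is 1 of the 49 members, in italics and sorted by role, and each column is 1 liver, numbered within its group. Colour gives log2(CPM + 0.5) minus the mean of the gene over the 16 libraries, red above and blue below. The CD_PFOA columns are mostly blue, with 2 to 7 of 49 members above their own mean, and CD_vehicle 4 is mostly red, with 46 of 49.

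Library by library, the median of the members after centring each gene on its mean over the 16 libraries (log2 of CPM plus 0.5) was 0.16, 0.28, −0.01 and 0.11 in HFD_PFOA livers and −0.43, −0.32, −0.27 and −0.48 in CD_PFOA livers. It was 0.12, 0.18, 0.29 and 0.24 in HFD_vehicle livers and 0.17, −0.17, −0.06 and 0.36 in CD_vehicle livers. The 4 CD_PFOA livers lay below the other 12, the HFD_vehicle livers lay close together, and the CD_vehicle livers spread widely, with CD_vehicle 4 highest. Members above their own mean numbered 24 to 42 of 49 in HFD_PFOA livers, 2 to 7 in CD_PFOA livers, 34 to 43 in HFD_vehicle livers and 11 to 46 in CD_vehicle livers. Levels per kilobase of exon in CD_vehicle ranged from 0.11 CPM per kb for Oas3 to 2814 for B2m, with a median of 4.25.

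Under PFOA the members pointed the same way between the diets far more often than they were called. Since the members were chosen with earlier results of these data known, their shares beside those of all genes are not an independent test. Of 49 log2 fold changes of HFD_PFOA over CD_PFOA, 47 were above 0, against 7552 of the 14998 genes tested. Their median was 0.60, against 0.00 over all genes, and the range ran from −0.04 (Mx2) to 1.43 (Oas3). In 32 of 49 members every HFD_PFOA liver lay above every CD_PFOA liver, where 4.15% of all genes did so, and in 0 members did the groups separate the other way. At an unadjusted p under 0.05, 34 members were higher, against 5.86% of all genes, and 0 were lower. The members called were Parp14, AW112010, Ifih1 and Samd9l, which made up 4 of the 9 genes called in this comparison, and the other 5 were Smad9, Gramd1b, Tpm2, Hbb-bs and Hs6st1. Macrophage markers pointed the same way (13 of 13 above 0, median 0.52, 0 called), and their part in the result was not tested. Leaving out any 1 of the 8 livers compared left 0 to 2 called members, with 0 by edgeR without HFD_PFOA 4 (35 members at an unadjusted p under 0.05) and without CD_PFOA 4 (31 members), while the median stayed at 0.52 to 0.64 over all 16 leave-one-out fits. DESeq2 called 13 members, edgeR with no filter on low counts 17 and edgeR without CD_vehicle 4 called 9, all of them higher.

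**Figure D2:**
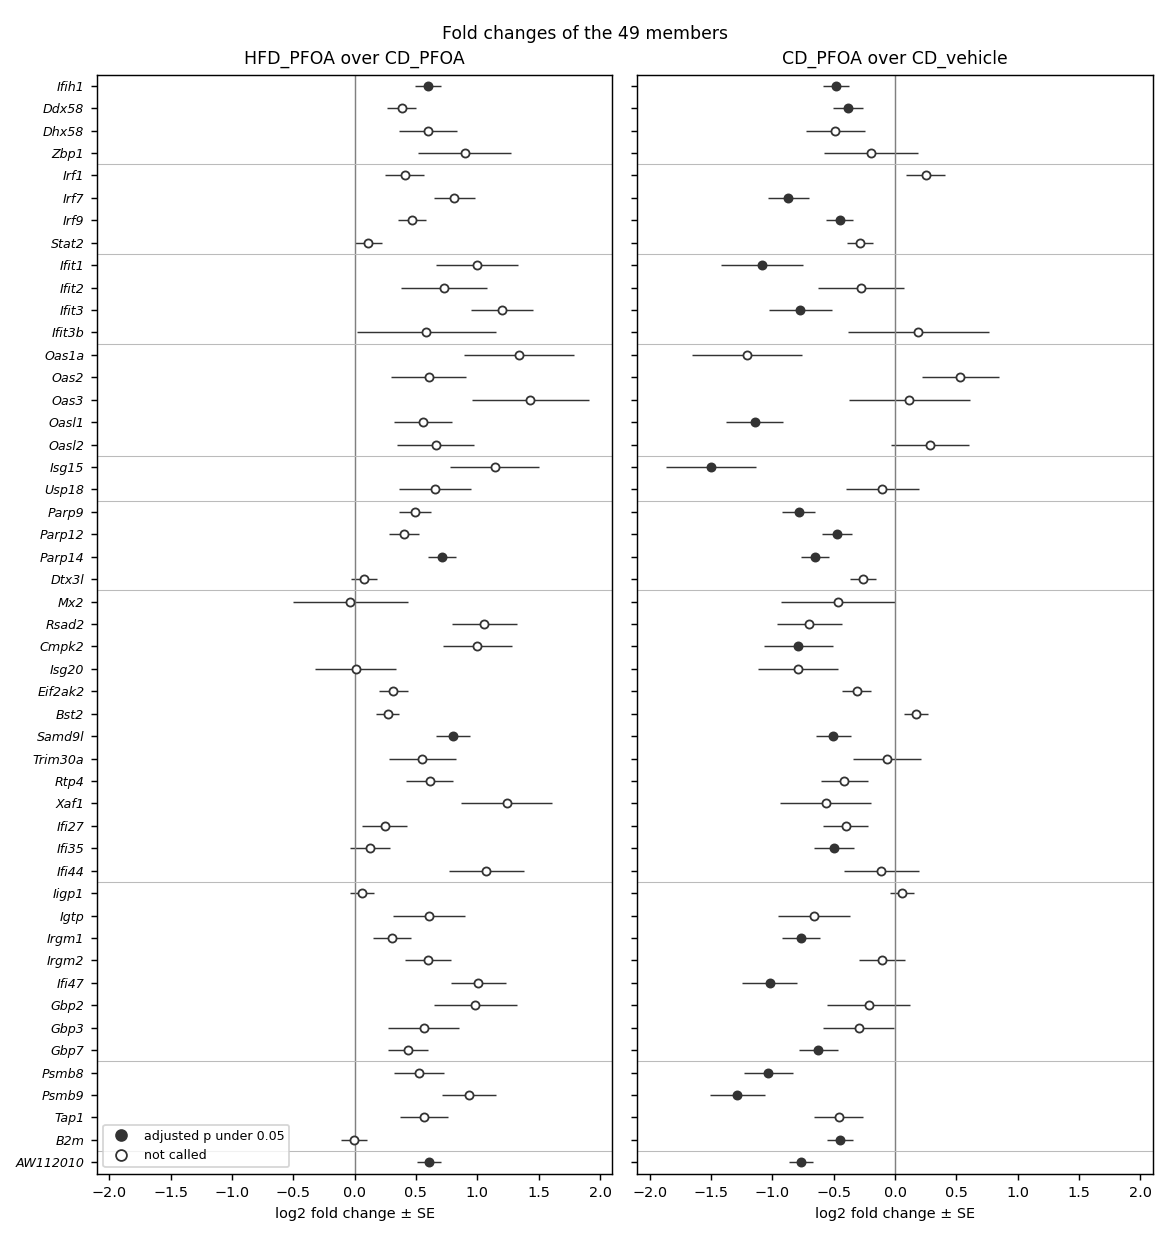
Points give the log2 fold change of each member ± SE from the edgeR fit, by role from top to bottom, for HFD_PFOA over CD_PFOA on the left and CD_PFOA over CD_vehicle on the right. Filled points have adjusted p under 0.05. On the left 47 of 49 points lie above 0 and 4 are filled, and on the right 42 of 49 lie below 0 and 21 are filled.

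Of the 4 sensors of foreign nucleic acid, all 4 had every HFD_PFOA liver above every CD_PFOA liver. The same held for 32 of the 49 members and for 4.15% of all genes. Ifih1 (MDA5, a sensor of long double-stranded RNA; chr2:62595798-62646255, GRCm38, minus strand) stood at 38.1, 36.6, 39.0 and 36.8 CPM in HFD_PFOA, 23.1, 24.5, 31.0 and 20.7 in CD_PFOA, 39.0, 40.8, 43.0 and 45.6 in HFD_vehicle and 35.1, 33.8, 33.8 and 36.0 in CD_vehicle livers. All 4 CD_PFOA livers were below the other 12. Ifih1 rose on the high-fat diet under PFOA (log2 0.60 ± 0.10 SE, edgeR adjusted p = 0.0305) and fell with PFOA on the control diet (log2 −0.48 ± 0.10, adjusted p = 0.00189). Ddx58 (RIG-I, a sensor of RNA with a free triphosphate end) had 30.5, 37.5, 34.0 and 32.8 CPM in HFD_PFOA, 20.1, 28.2, 29.3 and 25.8 in CD_PFOA, 38.2, 41.9, 32.5 and 38.7 in HFD_vehicle and 36.5, 30.4, 30.3 and 37.8 in CD_vehicle livers. It fell with PFOA on the control diet (log2 −0.38 ± 0.12, adjusted p = 0.0251), and between the diets under PFOA the groups did not overlap but the call was missed (log2 0.38 ± 0.12, adjusted p = 0.229). Zbp1, a sensor of Z-form nucleic acid that can trigger necroptosis, was scarce and scattered. It had 9.91, 9.09, 6.81 and 7.36 CPM in HFD_PFOA, 5.73, 5.59, 4.55 and 1.92 in CD_PFOA, 6.06, 5.66, 8.33 and 5.25 in HFD_vehicle and 7.76, 1.97, 2.62 and 7.95 in CD_vehicle livers, and was called in no comparison. Within CD_vehicle the livers that stand apart, 1 and 4, held the high values of Zbp1. Dhx58, the third RIG-I-like receptor, had log2 0.60 ± 0.24 between the diets under PFOA and −0.49 ± 0.24 with PFOA on the control diet, neither called.

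Among the transcription factors, Irf7 followed the common pattern and Irf1 did not. Irf7, the factor that amplifies type I interferon production, had 27.3, 28.9, 26.6 and 22.4 CPM in HFD_PFOA, 13.7, 16.4, 15.2 and 14.5 in CD_PFOA, 31.0, 31.0, 29.8 and 30.5 in HFD_vehicle and 35.7, 16.6, 24.2 and 32.7 in CD_vehicle livers. Each CD_PFOA liver was below each liver of the other groups. Irf7 fell with PFOA on the control diet (log2 −0.87 ± 0.17, adjusted p = 0.000636), and between the diets under PFOA its log2 difference of 0.81 ± 0.17 had an adjusted p of 0.0843 in edgeR and 0.00195 in DESeq2. Irf9, which binds the ISRE together with STAT2, fell with PFOA on the control diet (log2 −0.45 ± 0.11, adjusted p = 0.00540), with means of 27.4 ± 2.19 CPM in CD_PFOA and 37.4 ± 4.86 CPM in CD_vehicle livers (SD, n = 4 each). Stat2 differed little and was called in no comparison, with 47.1, 45.9, 48.0 and 43.0 CPM in HFD_PFOA, 36.8, 43.2, 46.5 and 44.0 in CD_PFOA, 45.5, 53.3, 48.4 and 43.4 in HFD_vehicle and 60.9, 41.0, 51.5 and 54.4 in CD_vehicle livers. Irf1, which interferon gamma induces, had 35.8, 27.3, 22.7 and 22.3 CPM in HFD_PFOA, 18.4, 22.1, 18.0 and 22.9 in CD_PFOA, 18.1, 14.5, 16.7 and 18.8 in HFD_vehicle and 16.4, 15.5, 14.2 and 22.3 in CD_vehicle livers. It rose with PFOA on the high-fat diet (log2 0.66 ± 0.16, adjusted p = 0.00659), a call that held in all 16 leave-one-out fits, and on the control diet it had log2 0.25 ± 0.16 (adjusted p = 0.289).

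The IFIT proteins, which bind viral RNA and block its translation, were present at a few CPM. Ifit1, which binds RNA with an incompletely methylated cap, had 6.52, 8.56, 7.47 and 6.89 CPM in HFD_PFOA, 1.08, 3.89, 5.02 and 4.74 in CD_PFOA, 9.19, 9.13, 9.86 and 9.65 in HFD_vehicle and 11.3, 3.75, 7.92 and 8.33 in CD_vehicle livers. The HFD_PFOA livers all lay above the CD_PFOA livers, and CD_vehicle 2 lay among the CD_PFOA livers. Ifit1 fell with PFOA on the control diet (log2 −1.09 ± 0.34, adjusted p = 0.0228) and had log2 0.998 ± 0.34 between the diets under PFOA (adjusted p = 0.252). Ifit3 fell with PFOA on the control diet (log2 −0.77 ± 0.26, adjusted p = 0.0328) and had the largest IFIT difference between the diets under PFOA (log2 1.202 ± 0.26, adjusted p = 0.0843). Ifit2 and Ifit3b were called in no comparison, and since Ifit3 and Ifit3b are close copies, how their reads were divided is uncertain.

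The OAS family, whose enzymes make the oligoadenylates that switch on RNase L, had 1 of 5 called lower with PFOA on the control diet. In that comparison 12.6% of all genes were called lower, and 3 of the 5 members were above 0. Oas1a had 1.48, 1.80, 1.25 and 2.19 CPM in HFD_PFOA, 0.789, 0.952, 0.211 and 0.695 in CD_PFOA, 1.004, 2.04, 1.86 and 1.95 in HFD_vehicle and 1.33, 1.24, 1.22 and 2.35 in CD_vehicle livers. The CD_PFOA livers were the 4 lowest, at below 1 CPM. By edgeR with all libraries, TMM scaling and the filterByExpr filter, Oas1a was called in no comparison. With PFOA on the control diet that fit gave log2 −1.21 ± 0.45 (adjusted p = 0.0569). There DESeq2 called Oas1a (adjusted p = 0.0257), and so did 1 of the 16 leave-one-out fits by edgeR (adjusted p = 0.0466). Oas3 had 2.33, 3.23, 1.40 and 2.27 CPM in HFD_PFOA, 0.872, 0.994, 0.885 and 0.654 in CD_PFOA, 2.55, 3.37, 2.27 and 2.80 in HFD_vehicle and 0.459, 0.275, 0.468 and 1.92 in CD_vehicle livers. The diets separated under either treatment, and neither PFOA comparison called Oas3. Oas3 rose on the high-fat diet under vehicle (log2 1.80 ± 0.48, adjusted p = 0.0222), and under PFOA its log2 difference was 1.43 ± 0.48 (adjusted p = 0.252). Oasl1, an OAS-like protein without the enzyme activity, fell with PFOA on the control diet (log2 −1.145 ± 0.23, adjusted p = 0.00114) with 6.40 to 12.1 CPM in CD_PFOA, against 13.5 to 32.3 in CD_vehicle livers. Oasl2 turned on 1 library: with all libraries it had log2 0.29 ± 0.32 with PFOA on the control diet (adjusted p = 0.566), and without CD_vehicle 4 it had 0.96 ± 0.20 and was called higher (adjusted p = 0.00124).

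Isg15, a ubiquitin-like protein that is attached to other proteins during the interferon response, had the lowest log2 fold change of the 49 members with PFOA on the control diet. Its levels were 5.04, 3.60, 2.29 and 1.88 CPM in HFD_PFOA, 0.997, 2.15, 0.843 and 1.80 in CD_PFOA, 3.32, 3.27, 4.46 and 4.25 in HFD_vehicle and 5.71, 3.62, 4.64 and 2.48 in CD_vehicle livers. The CD_PFOA livers were all below the CD_vehicle livers, while HFD_PFOA 4 lay within the CD_PFOA range. Isg15 fell by 1.501 ± 0.37 on the log2 scale with PFOA on the control diet (adjusted p = 0.00488), a call kept in all 16 leave-one-out fits. Usp18, which removes ISG15 and dampens signalling at the type I receptor, had 5.85, 7.53, 7.12 and 5.56 CPM in HFD_PFOA, 5.57, 2.61, 5.65 and 2.74 in CD_PFOA, 4.29, 5.56, 5.53 and 5.94 in HFD_vehicle and 3.67, 3.21, 3.51 and 7.39 in CD_vehicle livers. It was called in no comparison, and CD_PFOA 1 and 3 lay at the level of HFD_vehicle.

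Of the ADP-ribosyltransferases and their partner DTX3L, 3 of 4 fell with PFOA on the control diet, where 12.6% of all genes fell. Parp14, a mono-ADP-ribosyltransferase (chr16:35832874-35871544, minus strand), had 38.1, 43.0, 42.3 and 42.4 CPM in HFD_PFOA, 27.3, 29.9, 20.2 and 23.9 in CD_PFOA, 37.0, 40.0, 44.3 and 42.8 in HFD_vehicle and 42.3, 34.1, 39.0 and 43.7 in CD_vehicle livers. The CD_PFOA livers were the 4 lowest, and the other 3 groups overlapped. Parp14 rose on the high-fat diet under PFOA (log2 0.71 ± 0.11, adjusted p = 0.0221) and fell with PFOA on the control diet (log2 −0.65 ± 0.11, adjusted p = 0.000260), and on the high-fat diet PFOA gave log2 0.02 ± 0.11 (adjusted p = 0.951). Parp9, a macrodomain protein that works with the ubiquitin ligase DTX3L, had 57.7, 51.8, 46.8 and 43.5 CPM in HFD_PFOA, 35.7, 34.6, 38.9 and 32.9 in CD_PFOA, 47.1, 57.5, 54.4 and 53.2 in HFD_vehicle and 83.2, 55.3, 56.9 and 49.5 in CD_vehicle livers. It fell with PFOA on the control diet (log2 −0.79 ± 0.13, adjusted p = 0.000202). Its partner Dtx3l fell with PFOA on the high-fat diet (log2 −0.32 ± 0.11, adjusted p = 0.0456), and on the control diet it had log2 −0.26 ± 0.11 (adjusted p = 0.0810). For Dtx3l the test of the difference between the diets gave log2 −0.06 ± 0.15 (adjusted p = 0.944). Parp9 and Dtx3l lie head to head and share 458 bp of exon, and since the libraries carry no strand, reads there cannot be assigned to either. Parp12 fell with PFOA on the control diet (log2 −0.47 ± 0.12, adjusted p = 0.00799). This call was kept in 21 of 23 alternative fits, all 16 leave-one-out fits among them, with log2 from −0.57 to −0.22.

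**Figure D3:**
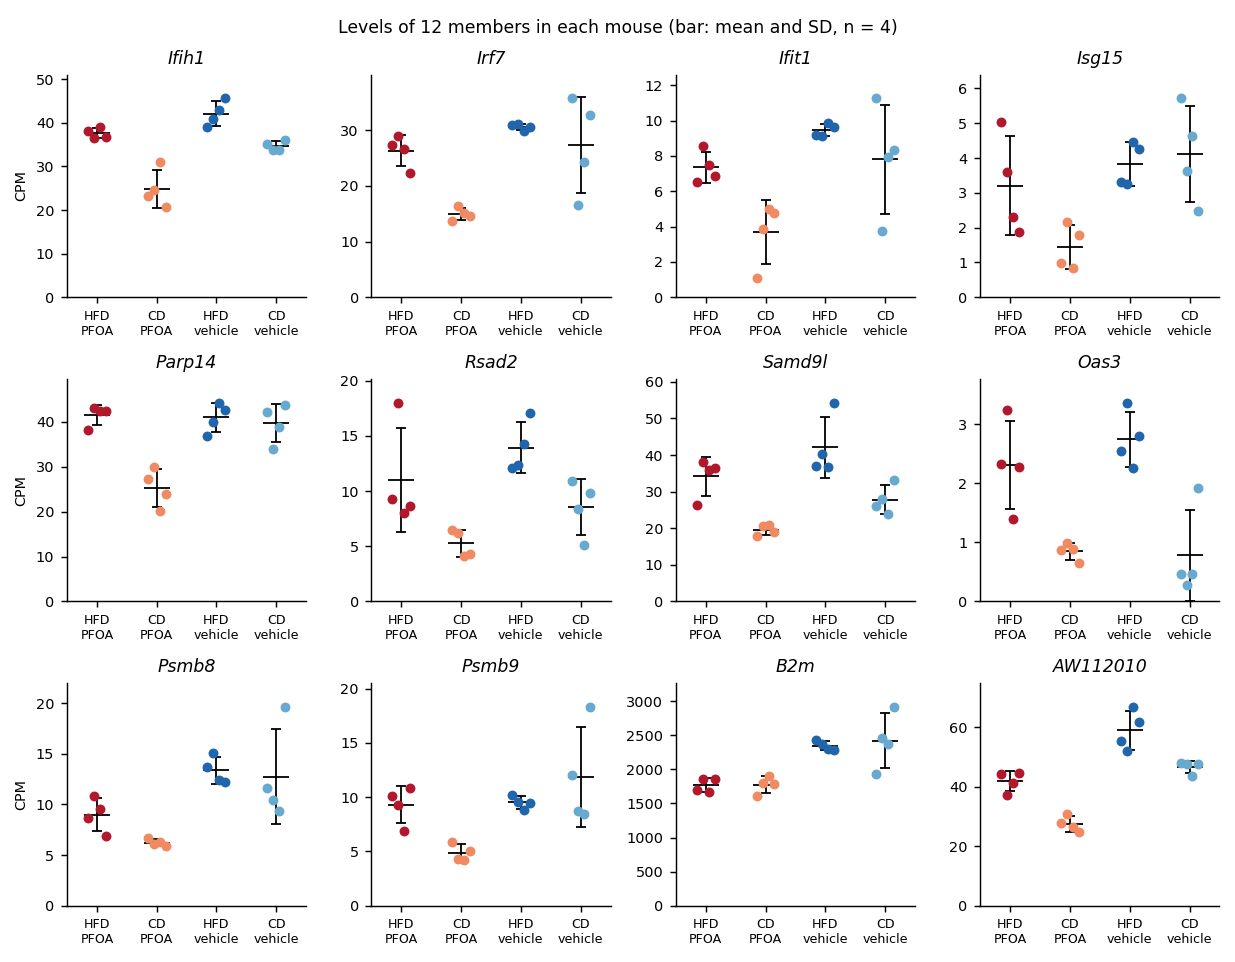
CPM of 12 members in each of the 16 livers, with each dot 1 mouse and the bar and whiskers the mean ± SD of 4 mice. Groups run from HFD_PFOA on the left to CD_vehicle on the right, and each vertical axis starts at 0. The CD_PFOA dots have the lowest group mean in 10 of the 12 panels, all but Oas3 and B2m.

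Of the 13 other antiviral effectors, Samd9l was called in 3 of the 4 comparisons. Samd9l, an antiviral factor (chr6:3372257-3399572, minus strand), had 26.2, 38.1, 35.9 and 36.4 CPM in HFD_PFOA, 17.9, 20.7, 20.8 and 19.1 in CD_PFOA, 37.0, 40.2, 36.8 and 54.3 in HFD_vehicle and 26.1, 27.9, 23.8 and 33.2 in CD_vehicle livers. Each diet comparison separated the mice completely. Samd9l rose on the high-fat diet under PFOA (log2 0.80 ± 0.14, adjusted p = 0.0333) and under vehicle (log2 0.60 ± 0.14, adjusted p = 0.00933), and fell with PFOA on the control diet (log2 −0.50 ± 0.14, adjusted p = 0.0131). Rsad2 (viperin), which makes a chain-terminating nucleotide, had 9.28, 18.0, 7.97 and 8.66 CPM in HFD_PFOA, 6.48, 6.21, 4.09 and 4.33 in CD_PFOA, 12.1, 12.4, 14.3 and 17.1 in HFD_vehicle and 10.9, 8.34, 5.15 and 9.87 in CD_vehicle livers. HFD_PFOA 2 was the highest of the 16 livers, and the CD_PFOA livers were all below the HFD_PFOA livers. Rsad2 was not called by edgeR with all libraries, TMM scaling and the filterByExpr filter (log2 1.05 ± 0.26 between the diets under PFOA, adjusted p = 0.137). DESeq2 called it there (adjusted p = 0.0161), and so did edgeR without CD_vehicle 1 and 4 (adjusted p = 0.0350). Its neighbour Cmpk2, a mitochondrial nucleotide kinase, fell with PFOA on the control diet (log2 −0.79 ± 0.28, adjusted p = 0.0488), a call that held in 4 of the 16 leave-one-out fits. Ifi27 had 32.3, 30.9, 23.6 and 24.5 CPM in HFD_PFOA, 24.9, 19.1, 26.7 and 23.2 in CD_PFOA, 41.4, 28.4, 18.6 and 31.6 in HFD_vehicle and 32.6, 25.0, 31.0 and 35.7 in CD_vehicle livers, with overlap in every pair of groups and no call. Ifi35 fell with PFOA on the control diet (log2 −0.50 ± 0.16, adjusted p = 0.0312). It shares 290 bp, or 16.8% of its exon length, with the antisense gene Gm11626. In all, 20 members share exon bases with another gene, at 0.919% to 16.8% of their exon length per overlap. Psmb8 (14.7%), Rtp4 (13.9%) and Gbp7 (11.3%) come after Ifi35, and reads in such stretches are uncertain.

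Bst2 (tetherin), which holds budding virus at the cell surface, was called higher where most members were not. It rose with PFOA on the high-fat diet (log2 0.35 ± 0.10, adjusted p = 0.0162), with 122, 122, 98.2 and 109.8 CPM in HFD_PFOA and 93.9, 88.9, 84.2 and 87.7 in HFD_vehicle livers. On the control diet it was at 93.5, 97.7, 93.03 and 90.6 CPM in CD_PFOA and 96.1, 72.9, 74.4 and 88.9 in CD_vehicle livers, and the groups overlapped (log2 0.17 ± 0.10, adjusted p = 0.213). Without CD_vehicle 1 and 4 it had 0.34 ± 0.10 there (adjusted p = 0.0122). The remaining effectors, Mx2, Isg20, Eif2ak2, Trim30a, Rtp4, Xaf1 and Ifi44, were called in no comparison, and their log2 differences between the diets under PFOA ran from −0.04 (Mx2) to 1.24 (Xaf1). Mx2 is annotated as a polymorphic pseudogene in the GRCm38 annotation.

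The interferon-inducible GTPases, which attack the vacuoles of intracellular pathogens, showed several patterns. Iigp1, the most abundant of them per kilobase (48.5 CPM per kb in CD_vehicle), had 342, 344, 269 and 267 CPM in HFD_PFOA, 320.5, 291, 279 and 283 in CD_PFOA, 233.4, 238, 254 and 223.7 in HFD_vehicle and 299, 280.2, 262 and 288 in CD_vehicle livers. HFD_vehicle was the low group, below each liver of the others. Iigp1 rose with PFOA on the high-fat diet (log2 0.36 ± 0.10, adjusted p = 0.0116) and had log2 0.06 ± 0.10 on the control diet. Igtp (IRGM3), a regulator of the other immunity-related GTPases, had 30.4, 32.8, 15.9 and 15.9 CPM in HFD_PFOA, 16.4, 18.3, 16.4 and 11.4 in CD_PFOA, 15.3, 18.5, 26.2 and 17.4 in HFD_vehicle and 21.9, 15.02, 18.2 and 43.6 in CD_vehicle livers. The highest value by far was in CD_vehicle 4, and HFD_PFOA 3 and 4 lay within the CD_PFOA range. By edgeR with all libraries, TMM scaling and the filterByExpr filter, Igtp was called in no comparison. Gbp2, a guanylate-binding protein, had 9.40, 17.03, 12.1 and 14.6 CPM in HFD_PFOA, 7.43, 6.13, 6.20 and 7.16 in CD_PFOA, 11.7, 10.4, 16.5 and 10.9 in HFD_vehicle and 6.84, 4.44, 3.42 and 16.5 in CD_vehicle livers. Its HFD_PFOA livers were all above the CD_PFOA livers, the CD_vehicle values reached from below every CD_PFOA liver to above most HFD_PFOA livers, and its direction with PFOA on the control diet depended on them: log2 −0.22 ± 0.34 with all libraries (adjusted p = 0.699) and 0.77 ± 0.25 without CD_vehicle 1 and 4 (adjusted p = 0.0321). Irgm1 (log2 −0.77 ± 0.16, adjusted p = 0.00124), Ifi47 (log2 −1.02 ± 0.22, adjusted p = 0.00212) and Gbp7 (log2 −0.62 ± 0.16, adjusted p = 0.00769) fell with PFOA on the control diet. Igtp and Irgm2 share 162 bp of exon, and reads shared by close GTPase copies make their counts uncertain.

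Antigen presentation held 4 members, of which 3 fell with PFOA on the control diet, where 12.6% of all genes fell. Psmb8, an inducible catalytic subunit of the immunoproteasome, had 8.64, 10.8, 9.57 and 6.89 CPM in HFD_PFOA, 6.64, 6.13, 6.32 and 5.85 in CD_PFOA, 13.7, 15.1, 12.4 and 12.3 in HFD_vehicle and 11.6, 10.49, 9.32 and 19.6 in CD_vehicle livers. Every CD_PFOA liver lay below every vehicle liver, and HFD_PFOA overlapped with CD_vehicle 2 and 3. Psmb8 fell with PFOA on the control diet (log2 −1.03 ± 0.20, adjusted p = 0.000724), and on the high-fat diet its log2 difference of −0.57 ± 0.20 just missed the call (adjusted p = 0.0526; 0.00974 without CD_vehicle 4). Psmb9, a second such subunit, had 10.1, 9.25, 6.92 and 10.8 CPM in HFD_PFOA, 5.90, 4.31, 4.21 and 5.07 in CD_PFOA, 10.2, 9.54, 8.79 and 9.46 in HFD_vehicle and 12.01, 8.70, 8.43 and 18.3 in CD_vehicle livers. It fell with PFOA on the control diet (log2 −1.28 ± 0.22, adjusted p = 0.000230; −0.82 without CD_vehicle 1 and 4), and on the high-fat diet the groups overlapped (log2 −0.04 ± 0.22, adjusted p = 0.947). Tap1, a subunit of the pump that carries peptides into the endoplasmic reticulum, had log2 −0.46 ± 0.20 with PFOA on the control diet (adjusted p = 0.0982) and was not called. It shares 212 bp of exon with Psmb9, where reads without strand cannot be assigned.

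B2m, the invariant light chain of MHC class I, fell with PFOA on both diets. Its levels were 1700.0, 1853, 1666 and 1856 CPM in HFD_PFOA, 1612, 1798, 1905 and 1783 in CD_PFOA, 2427, 2365, 2303 and 2281 in HFD_vehicle and 1926, 2456, 2379 and 2918 in CD_vehicle livers. Every PFOA liver lay below every vehicle liver. It fell with PFOA on the high-fat diet (log2 −0.41 ± 0.10, adjusted p = 0.00916) and on the control diet (log2 −0.45 ± 0.10, adjusted p = 0.00328), and the test of the difference between the diets gave log2 0.04 ± 0.15 (adjusted p = 0.960). AW112010, annotated as a long noncoding RNA (chr19:11047612-11055808, minus strand) and reported to be translated in mouse macrophages, had 44.4, 37.4, 41.2 and 44.5 CPM in HFD_PFOA, 27.7, 30.9, 26.6 and 24.8 in CD_PFOA, 55.5, 51.9, 66.95 and 61.8 in HFD_vehicle and 48.0, 47.6, 43.8 and 47.8 in CD_vehicle livers. The order from high to low was HFD_vehicle, CD_vehicle, HFD_PFOA and CD_PFOA, and of these neighbours only HFD_PFOA and CD_vehicle overlapped. AW112010 was called in all 4 comparisons: higher on the high-fat diet under PFOA (log2 0.60 ± 0.10, adjusted p = 0.0221) and under vehicle (log2 0.33 ± 0.10, adjusted p = 0.0319), and lower with PFOA on the high-fat diet (log2 −0.50 ± 0.10, adjusted p = 0.00105) and on the control diet (log2 −0.77 ± 0.10, adjusted p = 7.79e-06).

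On the control diet 42 of the 49 log2 fold changes of CD_PFOA over CD_vehicle were below 0, with a median of −0.47, against 0.00 over all genes. In 17 members every CD_PFOA liver lay below every CD_vehicle liver, where 11.6% of all genes did so. The calls cover 2 of 4 sensors, 2 of 4 transcription factors, 2 of 4 IFIT genes, 1 of 5 OAS genes, 1 of 2 genes of the ISG15 system, 3 of 4 of the PARP group, 3 of 13 other effectors, 3 of 8 GTPases, 3 of 4 antigen presentation genes and AW112010. Of the 21 calls, 16 held in each of the 16 leave-one-out fits. The others were Ifit1, lost without CD_vehicle 1 (adjusted p = 0.0835), Ifi35, lost without CD_vehicle 1, CD_vehicle 4 or CD_PFOA 4, Ddx58, lost without those 3 or CD_PFOA 1, Ifit3, lost without CD_vehicle 3, CD_vehicle 4, CD_PFOA 1, CD_PFOA 3 or CD_PFOA 4, and Cmpk2. The largest adjusted p-values of these were 0.107 for Ifit3, 0.106 for Ifi35, 0.0968 for Ddx58 and 0.146 for Cmpk2. Of the cell type markers, 6 of 7 hepatocyte markers, 2 of 7 B and plasma cell markers, 1 of 13 macrophage markers, 1 of 13 T and NK markers and 1 of 9 endothelial markers fell here, where 12.6% of all genes fell, while 4 of 9 endothelial and 2 of 9 stellate markers rose, where 11.8% did. Without CD_vehicle 1 and 4 all 7 hepatocyte markers and the 1 endothelial marker fell, and 0 of the macrophage, T and NK and B and plasma cell markers did. In that fit 2 macrophage, 1 B and plasma cell, 2 of 5 neutrophil, 2 of 9 dendritic, 4 endothelial and 3 stellate markers were higher. The part of these markers in the result was not tested. Without CD_vehicle 4 there were 17 members called lower and 1 called higher (Oasl2), with a median of −0.35. In that fit 13.1% of all genes were called lower and 12.8% higher. Without both CD_vehicle 1 and 4 there were 11 called lower and 3 higher (Oasl2, Bst2 and Gbp2), with a median of −0.22. There 10.6% of all genes were called lower and 11.6% higher.

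With PFOA on the high-fat diet the members did not share a direction. The median log2 fold change was −0.05, against 0.01 over all genes, and 20 of 49 were above 0. Irf1, Bst2 and Iigp1 rose, and AW112010, B2m and Dtx3l fell, and of these the calls of Irf1, B2m and AW112010 held in all 16 leave-one-out fits. Iigp1 lost its call without HFD_PFOA 2 (adjusted p = 0.0566), Bst2 without HFD_PFOA 1, HFD_PFOA 2 or HFD_vehicle 3 (at most 0.0615), and Dtx3l in 10 of 16 fits, including those without any 1 of the 8 livers compared (at most 0.130). Between the diets under vehicle the median was 0.16, against −0.03 over all genes, with 31 of 49 above 0, and Oas3, Samd9l and AW112010 rose. Leaving out 1 library moved that median between −0.01 (24 of 49 above 0, without CD_vehicle 2) and 0.28 (38 above 0, without CD_vehicle 4), and without both CD_vehicle 1 and 4 it was 0.37, with 41 above 0. The count of calls depended on single libraries: it was 0 without HFD_vehicle 4 (edgeR, with 6 members at an unadjusted p under 0.05), 1 without CD_vehicle 3 and 8 without CD_vehicle 4. These fits called 881, 956 and 2272 genes in all. Samd9l lost its call without HFD_vehicle 4 (adjusted p = 0.0505), Oas3 without CD_vehicle 1, 2 or 3 or HFD_vehicle 2 or 4 (at most 0.0711), and AW112010 without CD_vehicle 2 or 3 or HFD_vehicle 3 or 4 (at most 0.109). DESeq2 also called 3 under vehicle, where it called 2039 of 14998 genes.

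The interaction asks whether the PFOA difference on the high-fat diet departs from that on the control diet. It was above 0 for 44 of 49 members, with a median of 0.41, against 0.02 over all genes. Without CD_vehicle 4 the median was 0.26, with 41 above 0, and without both CD_vehicle 1 and 4 it was 0.14, with 37 above 0. At adjusted p under 0.05 edgeR called 0 members, where 0.207% of all genes were called. At an unadjusted p under 0.05, 14 members were above 0, where 5.55% of all genes were. The smallest p-values among the members were those of Irf9 (log2 0.66 ± 0.16, adjusted p = 0.0939), Parp14 (log2 0.67 ± 0.16, adjusted p = 0.0953) and Psmb9 (log2 1.25 ± 0.31, adjusted p = 0.103). DESeq2 called these 3 with Parp9 and Ifi47, among 223 of 14998 genes called. EdgeR without CD_vehicle 4 called Irf9 and Parp9, among 352 of 15365 genes called. By edgeR with all libraries and a low-count filter, a dependence of the PFOA response on diet was not shown for any single member.

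Interferons themselves were hardly detected. Of 14 ligand genes, 12 had 0 counts in all 16 libraries, which allows up to 0.116 CPM in the deepest and 0.208 CPM in the shallowest library (3 counts; counting error only). Ifng, the interferon of T and NK cells, had 9 counts in all, with 6 in HFD_PFOA, 1 in CD_PFOA, 1 in HFD_vehicle and 1 in CD_vehicle livers. Ifnk, a type I interferon known from skin, had 51 counts, with 24 in HFD_PFOA, 25 in CD_PFOA, 2 in HFD_vehicle and 0 in CD_vehicle livers. It was unevenly spread, at 0.466, 0.0409, 0.0778 and 0.392 CPM in HFD_PFOA and 0.872, 0.166, 0 and 0 CPM in CD_PFOA livers. None of the 14 had enough counts to be tested.

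Of 9 listed receptors and kinases that receive the interferon signal, 8 were tested. With PFOA on the control diet 2 rose and 1 fell, where 11.8% and 12.6% of all genes did. Without CD_vehicle 1 and 4, 2 rose and 0 fell, where 11.6% and 10.6% did. Ifngr2, a chain of the interferon gamma receptor, rose (log2 0.74 ± 0.11, adjusted p = 3.33e-05), as did Il10rb, a chain of the type III receptor (log2 0.81 ± 0.14, adjusted p = 0.000184), while the kinase Tyk2 fell (log2 −0.35 ± 0.11, adjusted p = 0.0187). Ifnar1, a chain of the type I receptor, was at 34.1 to 42.7 CPM in HFD_PFOA, 35.4 to 42.5 in CD_PFOA, 33.8 to 38.7 in HFD_vehicle and 26.01 to 46.9 in CD_vehicle livers and was called in no comparison. Ifngr1 rose on the high-fat diet under vehicle (log2 0.59 ± 0.14, adjusted p = 0.0124). The diet comparison under PFOA called 0 of the 8 by edgeR, with 1 at an unadjusted p under 0.05.

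Of 14 genes of interferon signalling and its inhibitors, 1 rose and 3 fell with PFOA on the control diet, and 0 rose and 3 fell on the high-fat diet, where the shares of all genes were 11.8% and 12.6% and then 8.6% and 7.91%. Without CD_vehicle 1 and 4, 3 rose and 2 fell on the control diet, where 11.6% and 10.6% of all genes did. Irf2bp2, a corepressor of IRF2, fell with PFOA on the high-fat diet (log2 −0.77 ± 0.13, adjusted p = 0.000319) and on the control diet (log2 −1.39 ± 0.13, adjusted p = 2.73e-07). Of 19 tested genes that act before interferon is made, 1 rose and 2 fell with PFOA on the control diet, below or near the same shares, and 2 rose and 1 fell without CD_vehicle 1 and 4. Ikbke, a kinase that activates IRF3 and IRF7, fell with PFOA on the high-fat diet (log2 −0.84 ± 0.15, adjusted p = 0.000568) and on the control diet (log2 −1.197 ± 0.16, adjusted p = 1.08e-05). Its levels were 17.2, 17.7, 16.7 and 15.5 CPM in HFD_PFOA, 12.8, 10.9, 9.99 and 10.7 in CD_PFOA, 24.6, 30.2, 32.8 and 32.9 in HFD_vehicle and 35.5, 19.3, 21.97 and 25.0 in CD_vehicle livers, so every PFOA liver lay below every vehicle liver. The adaptor Myd88 rose with PFOA on the high-fat diet (log2 0.67 ± 0.14, adjusted p = 0.00166).

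Interferon targets outside the 49 members gave a mixed picture. Of 63 other interferon-stimulated genes tested, 0 were called between the diets under PFOA by edgeR, although 54 were above 0 with a median of 0.44. An unadjusted p under 0.05 in either direction was found for 24. Of all 14998 genes, 879 were higher and 786 lower at that level. With PFOA on the control diet 6 rose and 12 fell of these 63, where 11.8% and 12.6% of all genes did, and their median was −0.12. This depended on CD_vehicle: without CD_vehicle 1 and 4, 9 rose and 8 fell, where 11.6% and 10.6% of all genes did. The median was then 0.155, against 0.02 over all genes. Rnf213, a giant ubiquitin ligase, had the smallest p of these between the diets under PFOA, with 81.0, 97.5, 99.0 and 87.0 CPM in HFD_PFOA and 63.9, 67.2, 63.5 and 64.2 CPM in CD_PFOA livers (log2 0.49 ± 0.11, adjusted p = 0.0892). Of 16 other interferon-inducible GTPases, all 16 were above 0 between the diets under PFOA, with a median of 0.65 and 0 called. On the control diet 1 of these rose with PFOA and 0 fell, where 11.8% and 12.6% of all genes did, with 8 above 0 and a median of 0.08. Without CD_vehicle 1 and 4 the counts were the same, with 13 above 0 and a median of 0.57. With PFOA on the high-fat diet 3 rose, among them Gbp4 at 9.96, 9.46, 8.75 and 6.78 CPM in HFD_PFOA and 4.09, 3.88, 5.20 and 3.14 CPM in HFD_vehicle livers (log2 1.105 ± 0.28, adjusted p = 0.00776). Of 6 interferon-induced chemokines all were above 0 between the diets under PFOA, with 0 called, and Cxcl9, which attracts T cells, had 29.02, 51.8, 25.9 and 32.8 CPM in HFD_PFOA and 15.9, 20.5, 20.4 and 17.5 CPM in CD_PFOA livers (adjusted p = 0.322).

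The MHC class I pathway beyond the members held many genes that fell with PFOA. Of 24 tested, 10 fell and 1 rose with PFOA on the high-fat diet (median −0.34), and 15 fell and 0 rose on the control diet (median −0.68), where 7.91% and 12.6% of all genes fell. Without CD_vehicle 1 and 4, 13 fell and 1 rose on the control diet (median −0.47), where 10.6% and 11.6% of all genes did. In HFD_PFOA over CD_PFOA 22 of 24 were above 0 (median 0.21), with 0 called by edgeR and 6 at an unadjusted p under 0.05 in either direction. Of all 14998 genes, 879 were higher and 786 lower at that level. H2-T22, a nonclassical heavy chain, stood at 22.7, 24.2, 24.9 and 23.1 CPM in HFD_PFOA, 18.6, 20.1, 16.5 and 19.5 in CD_PFOA, 32.1, 28.6, 28.9 and 29.04 in HFD_vehicle and 37.9, 34.9, 31.1 and 39.1 in CD_vehicle livers. Every PFOA liver was below every vehicle liver, and within PFOA every CD_PFOA liver was below every HFD_PFOA liver. H2-T22 fell with PFOA on the high-fat diet (log2 −0.32 ± 0.10, adjusted p = 0.0238) and on the control diet (log2 −0.94 ± 0.10, adjusted p = 5.28e-07), and its interaction was log2 0.62 ± 0.14 (adjusted p = 0.0639). Nlrc5, the transactivator of MHC class I genes, had log2 0.48 ± 0.18 between the diets under PFOA (adjusted p = 0.314) and −0.39 ± 0.18 with PFOA on the control diet (adjusted p = 0.136). Tap2, the partner of Tap1, fell on the control diet (log2 −0.74 ± 0.19, adjusted p = 0.00698), and so did the peptide editor Tapbpl (log2 −0.97 ± 0.15, adjusted p = 8.17e-05). Heavy chain genes of this cluster are close copies, and reads shared between them make their counts uncertain. Of 14 subunits of the constitutive proteasome, 9 rose and 0 fell with PFOA on the high-fat diet, where 8.6% of all genes rose. On the control diet 1 rose and 0 fell, where 11.8% rose, and 0 rose without CD_vehicle 1 and 4. In HFD_PFOA over CD_PFOA 0 of the 14 had an unadjusted p under 0.05.

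**Figure D4:**
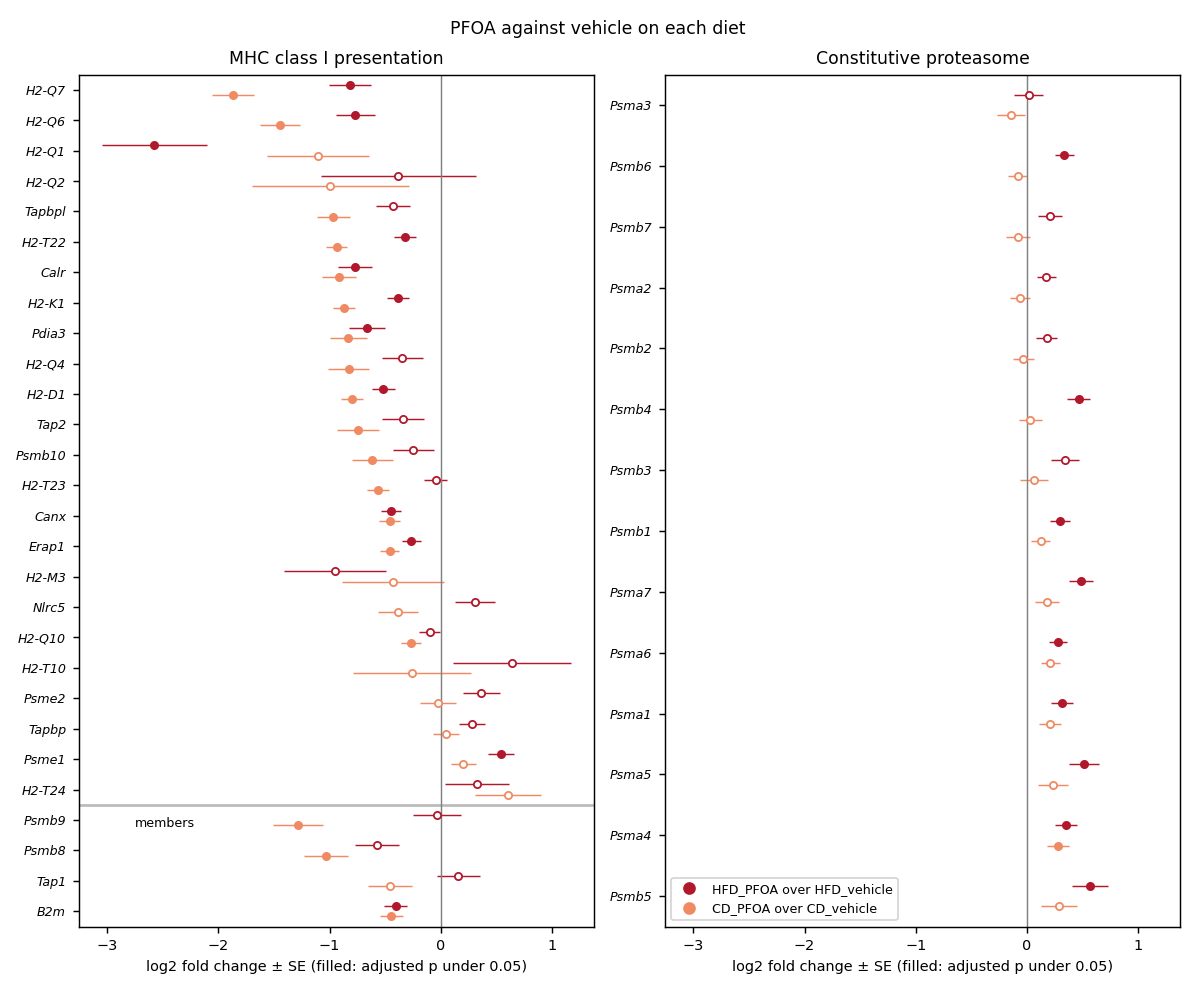
Log2 fold changes ± SE of PFOA over vehicle, dark red on the high-fat diet and orange on the control diet, for MHC class I presentation genes with the 4 antigen presentation members at the bottom (left) and for the constitutive proteasome (right). Filled points have adjusted p under 0.05. On the left 15 of 24 listed genes fell on the control diet and 10 on the high-fat diet, and on the right no subunit fell and 9 rose on the high-fat diet.

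MHC class II genes, which professional antigen-presenting cells use, rose with the diet under vehicle. Of 11 tested, 7 rose and 0 fell on the high-fat diet under vehicle, where 5.19% of all genes rose. Without CD_vehicle 1 and 4, 8 rose, where 8.03% of all genes did. In the same comparison 7 of 13 macrophage markers and 5 of 9 stellate markers rose, and their part in the result was not tested. Of the 11, 0 were called between the diets under PFOA, with 11 of 11 above 0 (median 0.73). An unadjusted p under 0.05 was found for 5, where 5.86% of all genes were higher at that level. Ctss, the protease that trims the class II invariant chain, had 43.5, 59.9, 64.3 and 65.2 CPM in HFD_PFOA, 40.8, 40.1, 26.9 and 35.1 in CD_PFOA, 67.8, 78.3, 90.9 and 105 in HFD_vehicle and 25.1, 26.8, 32.5 and 50.3 in CD_vehicle livers. Its HFD_PFOA livers were all above the CD_PFOA livers (log2 0.70 ± 0.20, adjusted p = 0.166).

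Markers of cells other than hepatocytes were measured beside the members. The summed CPM of 13 macrophage and Kupffer cell markers ran from 527 to 1052 in HFD_PFOA, 286.4 to 691.7 in CD_PFOA, 806.3 to 1080.0 in HFD_vehicle and 385 to 737.2 in CD_vehicle livers. Of the 13, 5 had an unadjusted edgeR p under 0.05 between the diets under PFOA, where 5.86% of all genes were higher at that level. Between the diets under vehicle 7 rose and 0 fell, where 5.19% and 5.21% of all genes did. T and NK markers summed to 6.77 to 11.95 CPM in HFD_PFOA, 4.57 to 8.22 in CD_PFOA, 8.72 to 12.5 in HFD_vehicle and 4.17 to 29.0 in CD_vehicle livers. B and plasma cell markers summed to 43.2 to 68.6 CPM in HFD_PFOA, 37.3 to 58.0 in CD_PFOA, 30.8 to 44.2 in HFD_vehicle and 18.4 to 646 in CD_vehicle livers, with CD_vehicle 4 at the top. The 5 tested neutrophil markers summed to 6.10 to 26.5 CPM in HFD_PFOA, 2.21 to 11.8 in CD_PFOA, 5.26 to 8.57 in HFD_vehicle and 1.27 to 4.75 in CD_vehicle livers. Of the 8 neutrophil markers Ly6g was at 0 counts in all libraries. In each of these 4 lists the summed CPM of HFD_PFOA and CD_PFOA overlapped. Of the dendritic markers 9 were tested, with sums of 133 to 156.4 CPM in HFD_PFOA and 121.1 to 127.1 in CD_PFOA livers, which did not overlap. That list includes the member Bst2, which gives most of the sum. Sums for sinusoidal endothelium were 332.5 to 429.9 CPM in HFD_PFOA and 319.6 to 436.1 in CD_PFOA livers, and for stellate cells 604.3 to 805.3 in HFD_PFOA and 585.2 to 761.2 in CD_PFOA livers. Of 7 hepatocyte markers, all 7 fell with PFOA on the high-fat diet, where 7.91% of all genes fell. With the high-fat diet under vehicle 4 of the 7 fell, where 5.21% of all genes did. The part of these cell type markers in the level of the members was not tested.

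**Figure D5:**
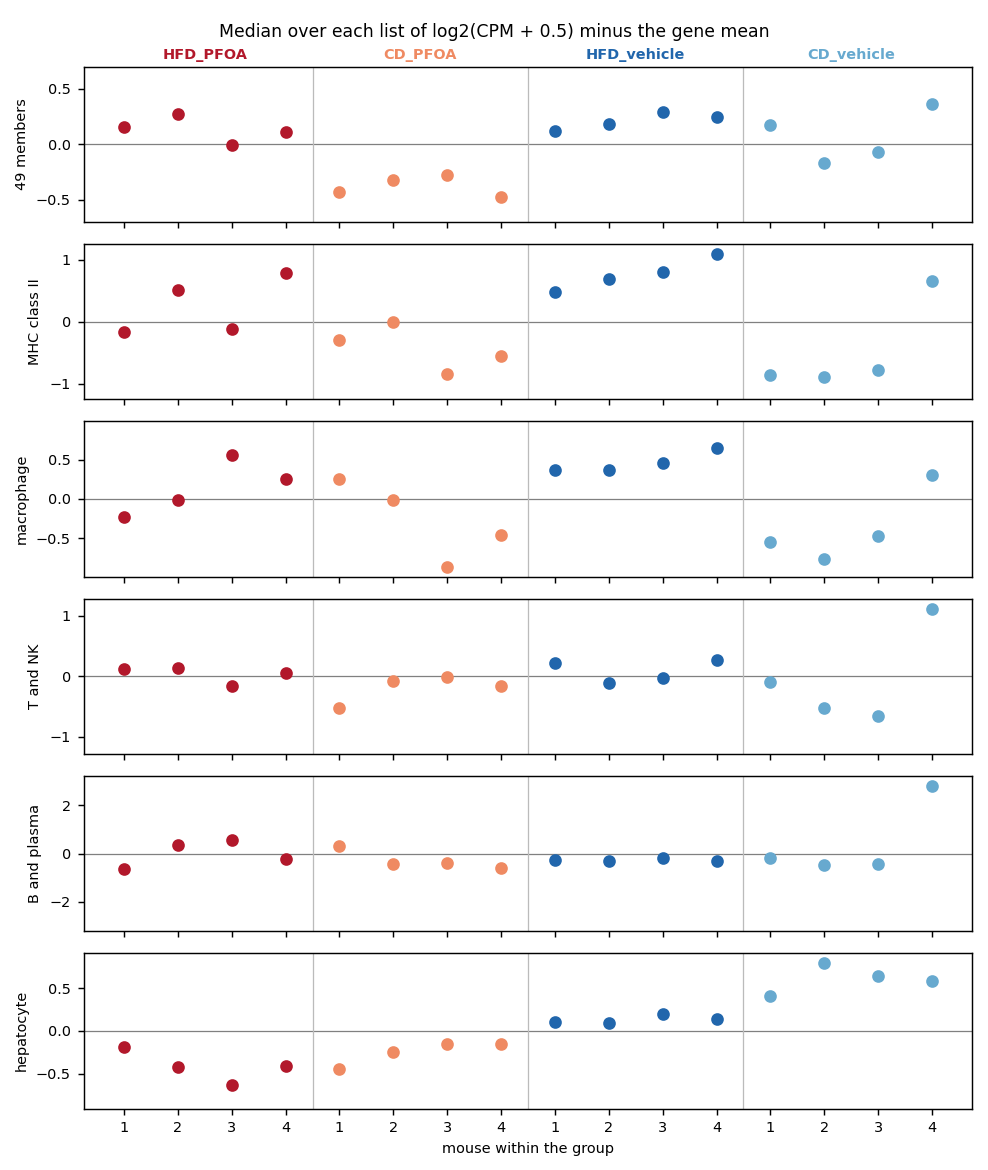
Each dot is 1 liver, and its height is the median over a list of log2(CPM + 0.5) minus the mean of the gene over the 16 libraries. Rows show the 49 members, MHC class II genes and markers of macrophages, T and NK cells, B and plasma cells and hepatocytes, each on its own scale. The members separate HFD_PFOA (−0.01 to 0.28) from CD_PFOA (−0.48 to −0.27), the macrophage row overlaps between these groups (−0.23 to 0.56 in HFD_PFOA and −0.86 to 0.25 in CD_PFOA), and CD_vehicle 4 is highest of its group in the first 5 rows.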

How the data were processed

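RNA was extracted from flash-frozen liver with a Qiagen RNeasy kit and sequenced on non-stranded BGI libraries, per the labels' protocols. The authors deposited raw read counts per gene, with no normalization. The submitters' processing notes list featureCounts (Subread 1.6.0), STAR 2.5.2b, Trimmomatic 0.33 and bcl2fastq 2.20.0.422, and the build GRCm38. No source used here names the annotation release or the treatment of reads with several locations.

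From the deposited counts, genes were filtered with filterByExpr of edgeR 4.0.16 in R 4.3.3, which kept 14998 of 53465 genes and 99.9% of the counts, scaled by TMM and fitted with the quasi-likelihood model over the 4 groups, with 12 residual degrees of freedom. Benjamini-Hochberg adjustment ran over all genes tested, and every call and adjusted p is from this fit with all libraries unless DESeq2 (1.42.0) or a library left out is named. Log2 fold changes are given ± SE. The script was tested on simulated data. The values of 1 listed signalling gene are not reported here. The members, roles and gene lists, and the members shown in every library (18 index members and the 3 smallest p-values per comparison), were chosen with earlier results of these data known. Alternatives were DESeq2, other scalings and filters, fits to the compared groups alone and each library left out. Leaving out CD_vehicle 1 and 4 together was chosen after seeing the data.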

Additional observations from a re-analysis of the deposited data

Results flagged for a closer look

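In 11 of 196 sets of 4 livers (49 members in 4 groups) the highest or lowest liver stood far from the other 3, with a gap past the 95% critical value of Dixon's test for 4 samples. Chance gives about 1 in 20 groups. CD_vehicle 4, the liver with high immunoglobulin transcripts, was the highest of its group in 5 of the 11. There it held Oas1a at 2.35 CPM, against 1.22 to 1.33 in the other 3 livers, and Oas3 at 1.92 CPM, against 0.275 to 0.468. It held Oasl2 at 14.7 CPM, against 3.37 to 5.004, Usp18 at 7.39 CPM, against 3.21 to 3.67, and Gbp3 at 11.2 CPM, against 5.04 to 5.62. AW112010 was low in CD_vehicle 3 at 43.8 CPM, against 47.6 to 48.0 in the others. In HFD_vehicle 1 Oas1a was low at 1.004 CPM, against 1.86 to 2.04, and so was Isg20 at 2.67 CPM, against 4.40 to 4.59. HFD_PFOA 2 was high in Rsad2 at 18.0 CPM, against 7.97 to 9.28, and HFD_PFOA 1 was low in Parp14 at 38.1 CPM, against 42.3 to 43.0. CD_PFOA 4 was low in Dhx58 at 4.46 CPM, against 6.70 to 7.14.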

How the results depend on the processing

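No paired analysis was possible because the labels number no replicates. Between the diets under PFOA, DESeq2 called 13 members, no low-count filter 17, a fit to the 8 compared libraries 12, the fit without both CD_vehicle 1 and CD_vehicle 4 called 16, and leaving out 1 library gave 0 to 9. Between the diets under vehicle, library totals gave 8 (2340), no low-count filter 5 (1753) and the compared groups alone 1 (896). The fit without both CD_vehicle livers gave 13 (2363), and leaving out 1 library 0 to 8 (881 to 2272). For the interaction, DESeq2 called 5 (223), no low-count filter 6 (290), the fit without both CD_vehicle livers 1 (652), and leaving out 1 library 0 to 2 (13 to 352). With PFOA on the high-fat diet, leaving out 1 library gave 4 to 8 (1990 to 2809) and the compared groups alone 9 (3411). On the control diet leaving out 1 library gave 17 to 28 (3072 to 3971). Gbp2 with PFOA on the control diet changed sign to 0.77 without both CD_vehicle livers. The cause of these differences was not tested. Scaling to library totals moved the median log2 fold change of all genes to 0.19 between the diets under vehicle and to −0.10 for the interaction, and the 8 calls under vehicle are to be read against that shift. Over all results and alternatives, 2171 values were counted as the same. These were calls kept in the same direction, uncalled values that stayed uncalled within their SE, and counts within 1.5 times. Of the others, 101 lost a call, 53 gained one, 1 called value reversed and 43 moved, as counts or uncalled values past these limits. Direction was compared only where a value was called in either fit, so uncalled values may have changed sign. Members near 1 CPM, such as Oas1a, Oas3 and Isg15, rest on few counts.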
